A study of Mus musculus with 10 samples.

Results

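Cytosolic ribosomal proteins are the protein parts of the ribosomes that translate messenger RNA outside mitochondria. The genes were chosen by symbol alone: every probe set that the platform annotation gave 1 gene symbol, and whose symbol was Rpl or Rps with a number and its usual suffixes, or Rplp0 to Rplp2, with Rps6k kinases and the pseudogene Rps4l left out. This gave 59 genes with 210 probe sets, of 19938 genes with 21789 single-symbol probe sets in all. Of the 59, 38 encode large-subunit proteins and 21 encode small-subunit proteins. The annotation lists 83 protein-coding symbols of this form, and the other 24 were not analysed here.

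The samples were melanoma tumours of male mice, 5 from Exercise mice (array numbers 300, 301, 306, 309 and 310) and 5 from non-Exercise mice (326, 327, 329, 330 and 331), with 1 Affymetrix array each. The series title speaks of voluntary exercise, tumour growth and NK cells. The sources used here do not give strain, age, the tumour line, or the form and length of the exercise, and neither group is labelled with another treatment or allele. Whether each tumour had an animal of its own is not stated, and p-values therefore cover only the spread among these tumours, which may be technical. Values are log2 probe set levels after quantile normalization, changes are Exercise minus non-Exercise, and a gene was called higher or lower where limma's p, adjusted by Benjamini-Hochberg over all 19938 genes, was under 0.05.

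A ribosome carries a single copy of most of its proteins, so cells make these proteins together and in quantity. Their messenger RNAs typically begin with a pyrimidine tract, the 5′ terminal oligopyrimidine or TOP motif, which lets mTORC1 signalling and the RNA-binding protein Larp1 control how strongly they are translated. Growing tumour cells keep ribosome production high, and Myc is a well-known driver of it.

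Exercise arrays 306, 309 and 310 stood apart. The mean centred log2 level of the 23 measured hepatocyte markers of 26 was 1.30, 1.34 and 0.86 on these arrays, against -0.47 and -0.58 on the other Exercise arrays and -0.61 to -0.31 on the non-Exercise arrays, and 5 of the 23 were called higher. Of 15 measured leukocyte markers 12 were called higher, with a mean centred level of -0.33 to 0.97 on Exercise arrays and -0.68 to -0.35 on non-Exercise arrays. Of 12 fibroblast markers 7 were called higher and 1 lower. Of the 12 melanocytic markers, none was called in either direction by limma (0 higher and 2 lower at an unadjusted p under 0.05), and 9 of the 12 changes were negative. The melanosome genes Dct, Pmel and Tyrp1 averaged 13.5, 13.4 and 13.5 in Exercise tumours against 13.6, 13.4 and 13.4 in non-Exercise tumours. The lowest changes were those of Tyr (-0.17, adjusted p = 0.0598), Sox10 (-0.14, adjusted p = 0.0935) and Trpm1 (-0.11, adjusted p = 0.505), close in size to the smaller ribosomal protein decreases. Results below are also given without the 3 arrays, a setting chosen after seeing the data. The part that these other cells had in the ribosomal protein levels was not tested. In bulk tumours, fewer cells of a type and less RNA per cell cannot be told apart.

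The start regions of the 5 genes called lower that hold a pyrimidine run are shown, to set the letters at the start beside the TOP motif, which lies at the first base of the messenger RNA. Each sequence shown spans 40 bases before to 25 bases after the first start that RefSeq lists for the gene in GRCm38.p6. It is read on the gene's strand, with unbroken runs of 8 or more C or T in capitals.
Rpl14, chr9:120571477-120571541, plus strand: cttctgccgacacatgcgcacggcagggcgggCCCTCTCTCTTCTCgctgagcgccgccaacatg
Rps25, chr9:44407674-44407738, plus strand: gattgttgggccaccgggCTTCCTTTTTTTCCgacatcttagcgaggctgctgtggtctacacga
Rpl22, chr4:152325686-152325750, plus strand: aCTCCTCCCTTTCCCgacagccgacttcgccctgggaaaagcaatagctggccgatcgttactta
Rpl13, chr8:123102310-123102374, plus strand: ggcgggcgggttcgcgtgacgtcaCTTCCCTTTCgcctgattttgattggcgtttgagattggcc
Rps12, chr10:23787185-23787249, minus strand: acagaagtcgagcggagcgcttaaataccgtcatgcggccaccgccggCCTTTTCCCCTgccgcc
Among these 5 the run held the listed start base in Rpl14 alone. In Rps25, Rpl22 and Rpl13 it ended 9, 26 and 7 bases before that base, outside the listed messenger RNA, and in Rps12 it began 8 bases after it. In 3 genes that were not called, runs of 20, 21 and 10 bases held the start base.
Rpl27a, chr7:109519155-109519219, plus strand: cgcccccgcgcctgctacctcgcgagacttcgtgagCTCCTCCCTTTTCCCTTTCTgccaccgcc
Rpl7a, chr2:26910767-26910831, plus strand: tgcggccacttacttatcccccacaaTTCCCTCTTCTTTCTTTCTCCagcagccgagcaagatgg
Rps6, chr4:86857343-86857407, minus strand: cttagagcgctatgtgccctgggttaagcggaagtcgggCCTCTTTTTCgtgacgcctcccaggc
Of the 48 members with a RefSeq start region, 23 (47.9%) held such a run, against 6871 of all 27025 start regions (25.4%). The run stood in 5 of 10 genes called lower (50%) and in 18 of 38 genes that were not called (47.4%). A run that held the listed start base stood in 12 of the 48 (25%), against 3.81% of all start regions, and in 1 of the 10 lower genes (10%) and 11 of the 38 that were not called (28.9%). Runs of A or G, the same letters on the other strand, stood in 7 of the 48 (14.6%) and in 26.5% of all start regions. The ETS-type motif CCGGAA, searched on both strands over 250 bases before to 50 after the start, stood in 22 of the 48 members (45.8%), in 3 of the 10 lower genes (30%) and in 15.2% of all 300-base regions. Rpl7 and Rpl36, also called lower, had no start region here. Only the first listed start of a gene was read, and runs under 8 bases were not counted. Where the messenger RNAs began in these tumours was not measured. These counts therefore do not show which genes carry or lack a TOP motif. A match of letters describes the sequence and is not a measured site.

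Most ribosomal protein genes read by single-symbol probe sets differed little between Exercise and non-Exercise tumours, and those that were called were mainly lower. In Exercise tumours 12 of the 59 genes were lower (20.3%, against 10.6% of all genes) and 1 was higher (1.69%, against 6.35% of all genes), while 46 were not called. The median change of the 59 was -0.038, beside -0.024 over all genes, and their changes ran between -0.31 and 0.19. The gap between the medians depended on the scaling and the arrays. It was wider in the table as deposited (-0.036, beside 0.0096 over all genes) and with median centring (-0.096, beside -0.051). Without Exercise 300 the order turned (-0.029, beside -0.036). Changes were negative in 36 members (61%), beside 57.1% of all genes. The decreases were small: the 12 lower members had a median change of -0.21, beside -0.32 for all genes called lower. Members also varied little within a group, with a median SD of 0.077 in Exercise and 0.064 in non-Exercise tumours, beside 0.14 and 0.12 over all genes, dim genes included.

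**Figure D1:**
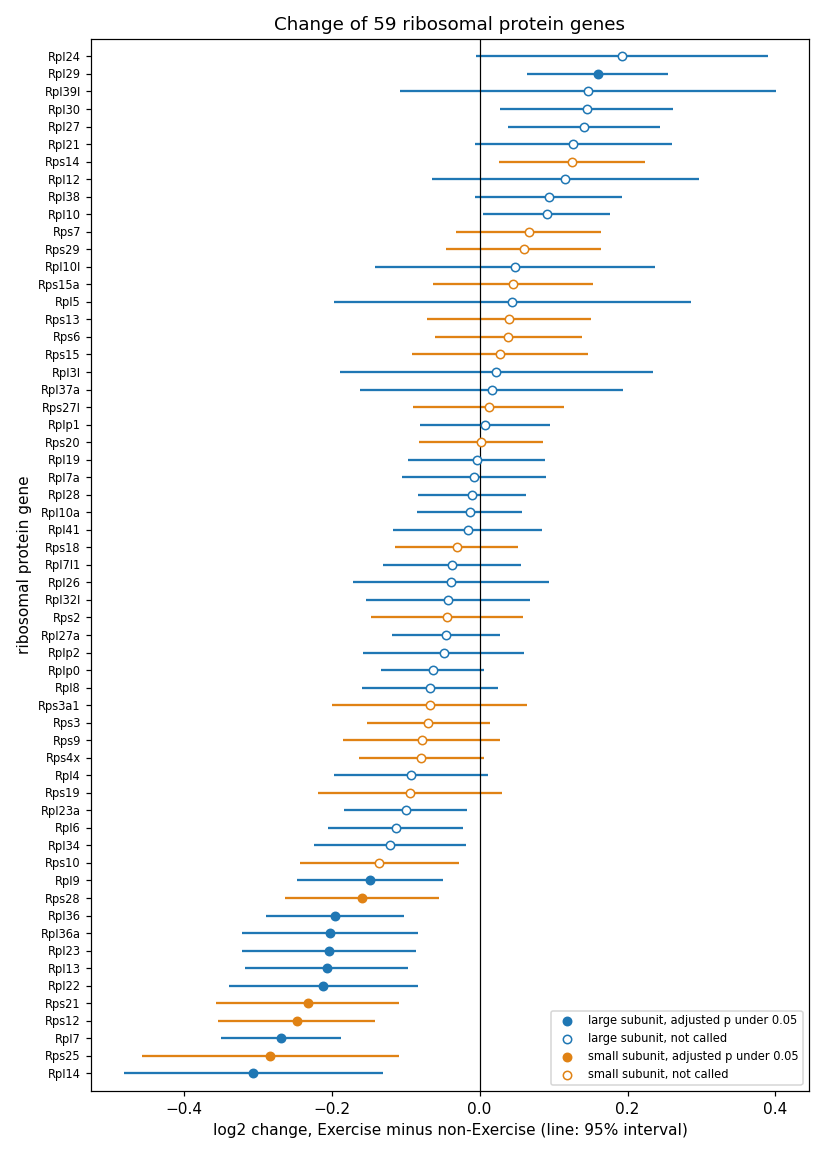
Log2 change in Exercise minus non-Exercise tumours for each of the 59 genes (points, filled where the adjusted p was under 0.05) with its 95% interval (lines), coloured by subunit. Changes lie between -0.31 (Rpl14) and 0.19 (Rpl24), and the 13 filled points are 12 lower genes and Rpl29.

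These counts rested on the arrays used and on the settings of the fit. With eBayes without the trend 7 members were lower (11.9%, beside 9.44% of all genes). Without Exercise arrays 306, 309 and 310, 5 members were lower (8.47%, beside 8.06% of all genes): Rpl7, Rps12, Rpl13, Rpl36 and Rpl22. Leaving out single arrays, 7 were lower without non-Exercise 326 (11.9%, beside 7.2% of all genes), 5 without non-Exercise 327 (8.47%, beside 7.44%) and 6 without non-Exercise 329 (10.2%, beside 7.44%). Rpl7, Rps12, Rpl13 and Rpl36 were called under all 19 alternatives.

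In 5 of the 59 genes every Exercise array lay below every non-Exercise array (8.33% of all genes did so), and in 2 every Exercise array lay above (3.74% of all genes). Groups that stood apart were therefore about as frequent among the members as over all genes. Rpl7, a large-subunit protein, was lower by the clearest margin. Its log2 level was 12.80, 12.83, 12.80, 12.82 and 12.70 on the Exercise arrays, against 13.03, 13.12, 13.05, 13.05 and 13.04 on the non-Exercise arrays. The groups stood well apart, with Exercise 310 lowest and non-Exercise 327 highest. Its change was -0.27 ± 0.038 (SE, n = 5 each), 1.20-fold lower, with limma's adjusted p = 0.000476, and -0.24 without the 3 arrays (adjusted p = 0.00523).

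Rps12, a small-subunit protein that in Drosophila is needed for cells with too few ribosomal proteins to be outcompeted, was at 12.07, 12.09, 11.99, 11.94 and 12.10 in Exercise tumours and at 12.27, 12.37, 12.31, 12.18 and 12.29 in non-Exercise tumours. The groups came nearest at Exercise 310, with Exercise 301 close to it, and non-Exercise 330, and the change was -0.25 ± 0.050 (limma's adjusted p = 0.00409). Rpl36, a large-subunit protein, was at 13.05, 13.17, 13.20, 13.17 and 13.02 in Exercise tumours and at 13.36, 13.33, 13.29, 13.36 and 13.25 in non-Exercise tumours. Again no array of one group entered the range of the other, and the change was -0.20 ± 0.044 (adjusted p = 0.00753). Rpl13, also of the large subunit, was at 12.21, 12.31, 12.31, 12.34 and 12.16 in Exercise tumours and at 12.42, 12.56, 12.56, 12.46 and 12.36 in non-Exercise tumours. The gap between its groups was narrow, between Exercise 309 and non-Exercise 331, and the change was -0.21 ± 0.052 (adjusted p = 0.0141).

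Rpl22, which in mice is required for the development of αβ T cells, was at 10.25, 10.37, 10.28, 10.28 and 10.49 in Exercise tumours and at 10.53, 10.62, 10.55, 10.49 and 10.54 in non-Exercise tumours. The groups met without overlap at Exercise 310 and non-Exercise 330. Its change of -0.21 ± 0.060 (limma's adjusted p = 0.0257) lost the call without any one of Exercise 300 or 309 or non-Exercise 326, 327 or 329 (adjusted p up to 0.0729).

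**Figure D2:**
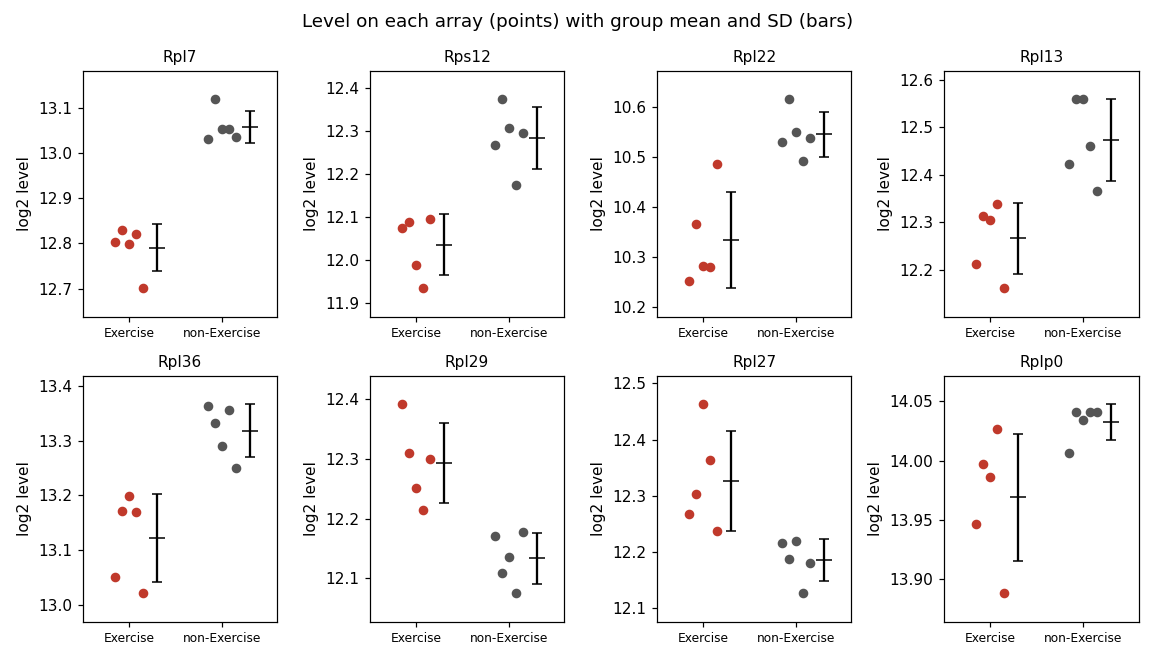
Log2 level on each of the 5 Exercise and 5 non-Exercise arrays (points) with group mean and SD (bars) for the 5 genes with all Exercise arrays below, the 2 with all above, and Rplp0. Each panel has its own axis, the Exercise points of Rpl7 lie at 12.70 to 12.83 against 13.03 to 13.12 in non-Exercise tumours, and Rplp0 overlaps.

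The 7 other genes called lower had groups that overlapped. Rpl14, a large-subunit protein, had the lowest change of all members, -0.31 ± 0.082 (limma's adjusted p = 0.0195), with 10.32, 10.20, 10.20, 10.02 and 10.24 in Exercise tumours and 10.49, 10.64, 10.61, 10.24 and 10.52 in non-Exercise tumours. Its overlap lay between Exercise 300 and non-Exercise 330 alone, and the call was lost without non-Exercise 327 or 329 (adjusted p up to 0.0578). Rps25, a small-subunit protein that several viral internal ribosome entry sites require, was at 12.36, 12.40, 12.21, 12.16 and 12.60 in Exercise tumours and at 12.71, 12.74, 12.64, 12.41 and 12.64 in non-Exercise tumours. Exercise 310 was high and non-Exercise 330 low in their groups, and the change of -0.28 ± 0.081 (adjusted p = 0.0274) lost its call without any one of Exercise 306 or 309 or non-Exercise 326, 327 or 329 (adjusted p up to 0.0746).

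Rps21, a small-subunit protein, was at 11.13, 11.34, 11.26, 11.18 and 11.12 in Exercise tumours and at 11.43, 11.50, 11.46, 11.32 and 11.50 in non-Exercise tumours. The overlap was slight, and the call on its change of -0.23 ± 0.058 (limma's adjusted p = 0.0135) held without any single array. The other 4 were Rpl23 (-0.20), whose protein binds the p53 regulator Mdm2, Rpl36a (-0.20), Rps28 (-0.16) and Rpl9 (-0.15), with adjusted p of 0.0208, 0.0229, 0.0369 and 0.0404. Single arrays decided each of these calls: non-Exercise 327, 329 or 330 for Rpl23 and non-Exercise 326 or 327 for Rpl36a. Rps28 lost its call without any one of 7 arrays, all but Exercise 301 and non-Exercise 330 and 331. Rpl9 lost its call without any array but Exercise 301 and non-Exercise 330. Without Exercise arrays 306, 309 and 310 none of these 7 genes passed, with changes between -0.25 (Rps25, adjusted p = 0.0536) and -0.11 (Rpl9, adjusted p = 0.263).

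The 1 gene called higher was Rpl29, a basic large-subunit protein also known as a heparin-binding protein. It was at 12.39, 12.31, 12.25, 12.21 and 12.30 in Exercise tumours and at 12.17, 12.11, 12.14, 12.08 and 12.18 in non-Exercise tumours. Every Exercise array lay above every non-Exercise array, with a change of 0.16 ± 0.045 (limma's adjusted p = 0.0243) and of 0.22 without the 3 arrays (adjusted p = 0.0203). The call depended on the scaling: the adjusted p was 0.0648 in the table as deposited and 0.398 with arrays centred on their medians. It was also lost without Exercise 300 or non-Exercise 327, 329 or 330 (adjusted p up to 0.0636). Rpl27, a large-subunit protein, was at 12.27, 12.30, 12.46, 12.36 and 12.24 in Exercise tumours and at 12.22, 12.19, 12.22, 12.13 and 12.18 in non-Exercise tumours. Its groups did not overlap either, but the change of 0.14 ± 0.048 did not pass (adjusted p = 0.0595), though it did without the dimmest 0.25 of genes, with array weights and without Exercise 310. Rpl24, the gene mutated in the Belly spot and tail mouse, had the highest change, 0.19 ± 0.092 (adjusted p = 0.184), with 11.98, 12.12, 11.96, 11.76 and 12.34 in Exercise tumours and 11.87, 11.88, 11.93, 11.61 and 11.92 in non-Exercise tumours. Array 309 was the lowest of the Exercise arrays and array 330 the lowest of the non-Exercise arrays.

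For the genes that were not called the arrays also bounded the change. In 51 of the 59 members, and in 44 of the 46 that were not called, the 95% interval lay within a 1.25-fold difference in either direction. Over all 19938 genes 11588 did so. These intervals cover only the brightest probe set of a gene. The dimmer probe sets of Rps10 changed by -0.33 and -0.52, beyond that difference. Over the 46 the intervals reached from -0.24 (Rps10) to 0.40 (Rpl39l).

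The acidic stalk of the large subunit recruits the translation factors that drive each step. Its base, Rplp0, was at 13.95, 14.00, 13.99, 14.03 and 13.89 in Exercise tumours and at 14.01, 14.04, 14.03, 14.04 and 14.04 in non-Exercise tumours. The ranges overlapped by a single array on each side, and the change of -0.063 did not pass (limma's adjusted p = 0.219). The stalk proteins Rplp1 and Rplp2 had changes of 0.0076 (adjusted p = 0.946) and -0.049 (adjusted p = 0.614). Rps6, the small-subunit protein that the S6 kinases phosphorylate downstream of mTORC1, was at 13.21, 13.23, 13.17, 13.12 and 13.34 in Exercise tumours and at 13.17, 13.20, 13.15, 13.10 and 13.26 in non-Exercise tumours, with overlapping groups and a change of 0.039 (adjusted p = 0.668).

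The 6 paralogs, genes named with an l suffix after a ribosomal protein that they resemble, were not called by limma, 0 of them at an unadjusted p under 0.05, with changes between -0.043 and 0.15. Rpl39l, enriched in testis, was at 7.38, 7.25, 7.27, 7.52 and 6.85 in Exercise tumours and at 7.00, 6.98, 7.07, 7.33 and 7.17 in non-Exercise tumours, a wide overlap (change 0.15 ± 0.12, adjusted p = 0.485). Rpl3l, of striated muscle, was at 7.44, 7.31, 7.22, 7.56 and 7.05 in Exercise tumours and at 7.15, 7.33, 7.32, 7.31 and 7.36 in non-Exercise tumours. Its change was 0.023 (adjusted p = 0.932), and the 15 skeletal muscle markers had a mean centred level of -1.06 to 1.43 on Exercise arrays and -0.60 to 0.19 on non-Exercise arrays, with no marker called (0 at an unadjusted p under 0.05). The table holds no detection calls, so whether these dim probe sets stood above background was not tested. Rpl10l, another paralog enriched in testis, changed by 0.048 (adjusted p = 0.807), Rps27l, a p53 target, by 0.012 (adjusted p = 0.922), Rpl7l1 by -0.038 (adjusted p = 0.661) and Rpl32l by -0.043 (adjusted p = 0.675), none of them past the threshold. Rpl32l was bright, with means of 12.56 in Exercise and 12.60 in non-Exercise tumours, and Rpl10l averaged 10.75 and 10.71. Whether the paralog probe sets also read the genes that the paralogs resemble was not tested.

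The subunits are described by counts alone, with no test between them. Of 38 large-subunit genes 8 were lower (21.1%) and 1 higher (2.63%), with a median change of -0.027. Of 21 small-subunit genes 4 were lower (19%) and none higher by limma (1 at an unadjusted p under 0.05), with a median of -0.044. Over all genes 10.6% were lower and 6.35% higher. Without the 3 arrays 4 large-subunit genes and 1 small-subunit gene were lower, beside 8.06% of all genes. The medians were then 0.0012 for the large and -0.018 for the small subunit, beside 0.0065 over all genes. Centring on array medians gave -0.089 and -0.11, beside -0.051 over all genes. The sign of the large-subunit median therefore turned with the arrays used, as did that of all genes, whose median was -0.024 with all 10 arrays.

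By array, the mean centred log2 level over the 59 genes was -0.0066, 0.028, -0.035, -0.051 and -0.034 in Exercise tumours 300, 301, 306, 309 and 310. It was 0.011, 0.051, 0.032, -0.032 and 0.036 in non-Exercise tumours 326, 327, 329, 330 and 331. The groups overlapped: Exercise 301 lay above 2 non-Exercise tumours and non-Exercise 330 below 2 Exercise tumours. The 3 Exercise arrays with high hepatocyte markers lay between -0.051 and -0.034, close to non-Exercise 330, which lay below Exercise 306 in the table as deposited (-0.038 against -0.032 for Exercise 306).

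**Figure D3:**
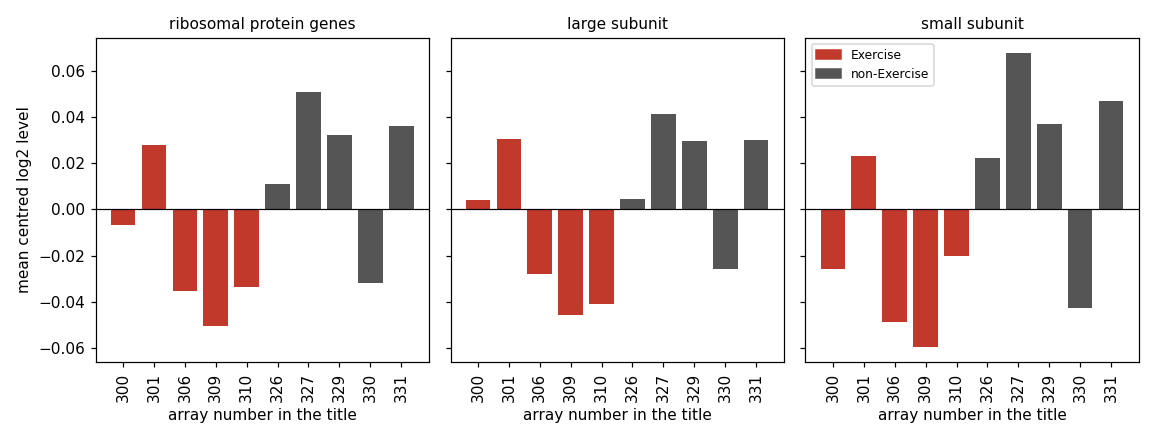
Mean centred log2 level of the 59 genes, the 38 large-subunit genes and the 21 small-subunit genes on each array (bars), Exercise left of non-Exercise. Over the 59 genes the bars run between -0.051 (Exercise 309) and 0.051 (non-Exercise 327), and Exercise 301 and non-Exercise 330 have the opposite sign to the rest of their groups.

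Several members are read by more than 1 probe set, and these may share probes or read processed pseudogene copies, so they are not independent and values for such genes are uncertain. Of the 210 member probe sets, 49 were lower (10.3% of all 21789 single-symbol probe sets were) and 1 was higher (6.28% of all were). Of 37 genes with several probe sets, 29 had changes of 1 sign in all of them and 8 had both signs, all 8 with no probe set called. All 9 probe sets of Rpl13 were lower, with changes between -0.22 and -0.18, and all 4 of Rpl7, between -0.32 and -0.24. Of the 14 probe sets of Rps12, 12 were lower (-0.29 to -0.25), and 7 of the 14 repeated the values of another. Rpl36 had 7 of 9 lower, Rps28 5 of 7, Rps25 3 of 6 and Rpl9 1 of 8.

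Rps10, a small-subunit protein near the path by which messenger RNA enters and a target of the ubiquitin ligase Zfp598 on collided ribosomes, gave the most uneven readings. Its brightest probe set, which stands for the gene above, was at 12.86, 12.83, 12.77, 12.72 and 12.96 in Exercise tumours and at 13.01, 12.97, 12.95, 12.84 and 13.04 in non-Exercise tumours. These overlapped, with a change of -0.14 ± 0.050 that was not called over all probe sets (limma's adjusted p = 0.0822). The next was at 12.01, 12.05, 12.06, 11.98 and 12.06 in Exercise tumours and at 12.38, 12.34, 12.32, 12.35 and 12.42 in non-Exercise tumours, with a change of -0.33 ± 0.040 (adjusted p = 0.000228). The dimmest was at 11.08, 11.11, 11.06, 10.98 and 11.00 in Exercise tumours and at 11.69, 11.58, 11.46, 11.58 and 11.55 in non-Exercise tumours, with a change of -0.52 ± 0.053, 1.44-fold lower (adjusted p = 6.64e-05). The groups of both dimmer probe sets stood far apart, while those of the brightest overlapped.

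**Figure D4:**
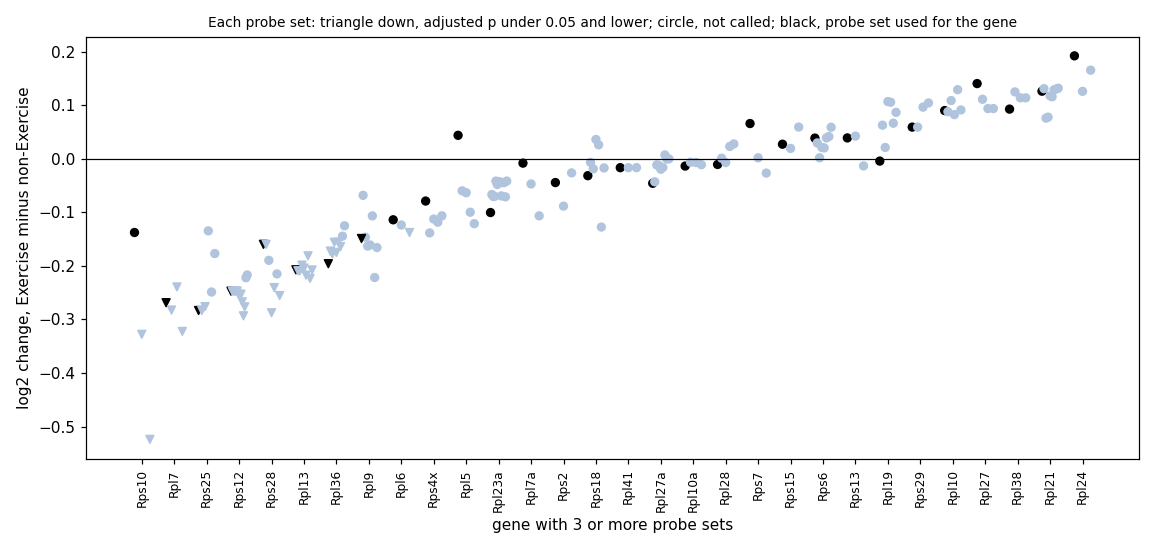
Log2 change in Exercise minus non-Exercise tumours of every probe set of the 30 genes with 3 or more, as triangles where the adjusted p was under 0.05 and circles otherwise, with the probe set that stands for the gene in black. The probe sets of Rpl13 lie together between -0.22 and -0.18, while those of Rps10 spread from -0.52 to -0.14.

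Another 237 probe sets carried several symbols of which at least 1 fits the rule, so no gene is named from them. In Exercise tumours 34 were higher (14.3%, against 4.76% of all 35556 probe sets) and 12 were lower (5.06%, against 6.4% of all). The 35556 include 12146 probe sets without a gene symbol. Among the 21789 single-symbol probe sets, fitted by themselves, 6.28% were higher and 10.3% lower. The median change of the 237 was -0.019, with a range of -0.33 to 0.39.

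Genes that work beside the ribosomal proteins were counted in lists. For comparison, 6.35% of all genes were called higher and 10.6% lower, with a median change of -0.024. Of ribosomal proteins under other symbols, Fau was lower (-0.13 ± 0.039, limma's adjusted p = 0.0312) and Rpsa was not called (-0.10, adjusted p = 0.181). The call on Fau was lost in the table as deposited, without the 3 arrays, and without any one of Exercise 300 or 310 or non-Exercise 326, 327, 329 or 331 (adjusted p up to 0.0821). Of 16 measured translation genes whose messenger RNAs carry a TOP motif, 7 were lower and none higher by limma (9 and 0 at an unadjusted p under 0.05), with a median change of -0.12. Eif3f, a subunit of the initiation factor that joins the small subunit, averaged 12.41 ± 0.083 in Exercise tumours and 12.79 ± 0.054 in non-Exercise tumours (SD, n = 5 each), a change of -0.37 ± 0.047 (SE; adjusted p = 0.000259). Eif4b, a cofactor of the helicase that unwinds messenger RNA leaders, fell by 0.27 (adjusted p = 0.00105). The elongation factors Eef1a1 (-0.13, adjusted p = 0.0189) and Eef2 (-0.12, adjusted p = 0.0217) and the poly(A)-binding protein Pabpc1 (-0.17, adjusted p = 0.0175) were lower, but not without the 3 arrays (adjusted p = 0.15, 0.0606 and 0.24). Both elongation factors also lost their calls in the table as deposited (adjusted p = 0.118 for Eef1a1 and 0.0832 for Eef2), Eef1a1 without non-Exercise 327 or 329, and Eef2 without non-Exercise 330. Over this list the count of lower genes was 4 in the table as deposited, 9 with median centring, 4 without non-Exercise 327 or 329, and 2, Eif3f and Eif4b, without the 3 arrays.

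Of the TOP RNAs that host small nucleolar RNAs 2 of 9 were measured, and Gas5 was higher, at 12.06 ± 0.10 in Exercise tumours and 11.81 ± 0.11 in non-Exercise tumours (change 0.25 ± 0.063, limma's adjusted p = 0.0152). It did not pass with arrays centred on their medians (adjusted p = 0.14) or with the mean of its probe sets (adjusted p = 0.203). Snhg5 had a change of 0.30 (adjusted p = 0.0909).

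Of 35 ribosome biogenesis genes 1 was higher and 5 were lower, near the 6.35% and 10.6% of all genes. Their median was -0.014, beside -0.024 over all genes. The higher one was Nol6, a nucleolar protein of pre-ribosomal RNA processing (0.41 ± 0.061, limma's adjusted p = 0.000643). Fbl, the methyltransferase fibrillarin, averaged 12.04 ± 0.13 in Exercise tumours and 12.48 ± 0.12 in non-Exercise tumours (change -0.44 ± 0.068, adjusted p = 0.000854). Gar1, of the particles that make pseudouridine in ribosomal RNA, fell by 0.47 (adjusted p = 0.00295) and Bysl, which helps mature the small subunit, by 0.30 (adjusted p = 0.0142). Without the 3 arrays 2 were higher and 3 lower. The count of lower genes was 6 in the table as deposited, 8 with median centring and 3 without Exercise 310 or non-Exercise 326, 327 or 329. Of 17 RNA polymerase I genes none was called by limma (1 higher and 0 lower at an unadjusted p under 0.05), and the nearest was Taf1a (0.21, adjusted p = 0.117). Leaving out Exercise 306 brought Taf1a to an adjusted p of 0.0314, and leaving out Exercise 310 brought Polr1a to 0.0221, while median centring made Rrn3 lower (adjusted p = 0.0266). Of 15 genes for ribosome maturation and rescue, 1 was higher and none lower by limma, beside 6.35% and 10.6% of all genes (3 higher and 0 lower at an unadjusted p under 0.05). That gene was Lsg1, a GTPase that finishes the large subunit (0.29 ± 0.063, adjusted p = 0.00656). Leaving out Exercise 310 added Usp10, which removes ubiquitin from stalled ribosomes (adjusted p = 0.0367).

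Of 21 genes of mTORC1 and TOP translation control 4 were higher and 7 lower, beside 6.35% and 10.6% of all genes. Larp1, which binds TOP messenger RNAs, averaged 11.99 ± 0.076 in Exercise tumours and 11.53 ± 0.094 in non-Exercise tumours (change 0.46 ± 0.056, limma's adjusted p = 0.000211). Mtor, the kinase of the complex, was higher by 0.28 (adjusted p = 0.00375), but not past the threshold without the 3 arrays (0.22, adjusted p = 0.0658). Among lower genes, Castor1, an arginine sensor that restrains mTORC1, had a change of -0.51 ± 0.067 (adjusted p = 0.000304), Sesn2, a leucine sensor, of -0.87 ± 0.12 (adjusted p = 0.000306) and the stress-induced inhibitor Ddit4 of -1.09 ± 0.077 (adjusted p = 6.09e-06). Also higher were Rptor (0.29, limma's adjusted p = 0.00227) and Tsc1 (0.18, adjusted p = 0.0296). Also lower were Rps6kb2 (-0.39, adjusted p = 0.00137), Sesn3 (-0.43, adjusted p = 0.00169), Eif4ebp2 (-0.29, adjusted p = 0.00607) and Akt1s1 (-0.37, adjusted p = 0.00616). The activity of mTORC1 was not measured. Without the 3 arrays 2 genes of this list were higher and 7 lower. In the Myc network 1 of 12 genes was lower, beside 10.6% of all genes. This was the repressor Mxd4 (-0.49 ± 0.11, limma's adjusted p = 0.00731), while Myc had a change of -0.065 (adjusted p = 0.573). The lower count was 2 in the table as deposited, with Mlx (adjusted p = 0.0194), and 3 with median centring, with Mlx (0.00323) and Mnt (0.0228). It was also 2 without the 3 arrays, with Mnt (adjusted p = 0.0452), and without Exercise 309 or non-Exercise 327, Mlx joining (adjusted p = 0.0196 and 0.0482), and without Exercise 300 Mlxip was higher (adjusted p = 0.0301).

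**Figure D5:**
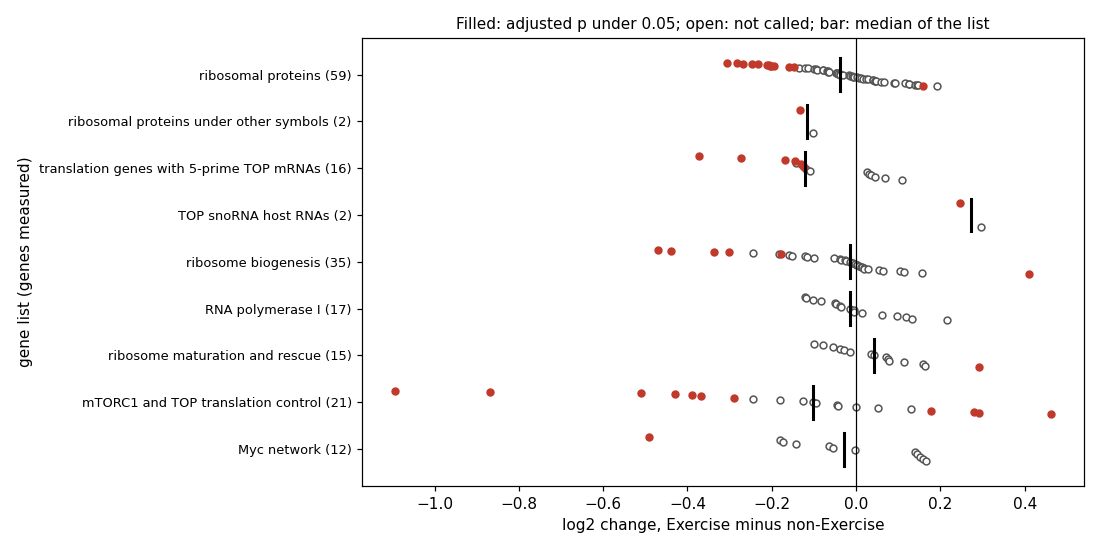
Log2 change in Exercise minus non-Exercise tumours of each gene (points, filled where the adjusted p was under 0.05) in the 59 ribosomal protein genes and the 8 companion lists, with the median of each list (bar). Ribosomal protein genes lie within -0.31 to 0.19, while mTORC1 and TOP control genes run between -1.09 (Ddit4) and 0.46 (Larp1).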

How the data were processed

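The authors deposited 1 table of probe set values for 10 arrays, summarised with PLIER per the submitters' processing notes. RNA was isolated with 1 of 2 RNeasy kits and end-labelled with biotin as cDNA, per the labels' protocols, which do not say which tumour had which kit. The deposited values (4.66 to 14.55) were taken as log2; the sources used here do not give the base, any added constant or the normalization between arrays. No probe-level or detection data were used. The number of arrays limits the precision.

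Array medians differed by 0.126, so the table was quantile normalized and fitted with limma 3.58.1 in R 4.3.3 (lmFit, eBayes with trend, two-sided), with Benjamini-Hochberg adjustment over 19938 genes at 0.05. Genes were named from the platform table, updated by Entrez identifier through RefSeq GRCm38.p6 (21698 of 21789 probe sets matched, 0 symbols changed). Of 35556 probe sets, 1621 had several symbols and 12146 were not listed. The brightest probe set by mean stands for a gene with several. Batches such as slides or scan dates were not analysed here. No 2 arrays shared more than 1 exact value. The code was tested on simulated data. Figures were drawn with matplotlib 3.10.9 in Python 3.11.15.

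Named genes are the called members (10 largest each way), paralogs, Rplp0 to Rplp2, Rps6, members with probe sets that disagree, up to 4 genes of smallest p per companion list, and Ddit4, Larp1, Mtor, Myc, Eef2 and Eef1a1. Rpl24, Rpl27, Rpl27a, Rpl7a, Rps14, Rpl23a, Rpl34, Rpl4, Rps3 and the melanocytic markers named were chosen after their values were seen, as were the start regions printed. So were Rptor, Tsc1, Rps6kb2, Sesn3, Eif4ebp2 and Akt1s1. Members and lists were chosen with earlier results of these data known. Alternatives were the deposited table, median centring, a filter on the dimmest 0.25 of genes, the mean of probe sets, single probe sets, eBayes without trend or robust, array weights, and leaving out arrays. Keratinocyte, endothelial, adipocyte and erythroid marker lists gave 0, 0, 1 and 0 genes higher and 0, 1, 0 and 2 lower.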

Additional observations from a re-analysis of the deposited data

Results flagged for a closer look

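Single arrays lay far from the other 4 of their group (Dixon's test at 95%) in 11 of 132 sets of values examined, and chance gives about 1 in 20. Rpl7 was low on Exercise 310 (12.7007, the others 12.80 to 12.83) and high on non-Exercise 327 (13.1202, the others 13.03 to 13.05). Rpl6 was low on Exercise 310 (13.2258, the others 13.38 to 13.41). Rpl36a was high on non-Exercise 327 (12.3096, the others 12.24 to 12.26). Rplp0 (14.0065, the others 14.03 to 14.04) and Rpl3l (7.15492, the others 7.31 to 7.36) were low on non-Exercise 326. Rps18 was low on non-Exercise 331 (12.6807, the others 12.76 to 12.79), and Rps7 was high on non-Exercise 329 (12.7251, the others 12.65 to 12.67). On Exercise 300, Snhg5 was high (10.0307, the others 9.51 to 9.61), while Castor1 (8.86989, the others 9.02 to 9.05) and Mxd4 (9.4428, the others 9.96 to 10.06) were low.

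Probe sets with several symbols were not used for any gene. Of the 237 with at least 1 ribosomal protein symbol, 34 were higher in Exercise tumours (14.3%, against 4.76% of all probe sets) and 12 lower (5.06%, against 6.4%). Among single-symbol probe sets, fitted by themselves, 6.28% were higher and 10.3% lower.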

How the results depend on the processing

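Ribosomal protein genes called lower numbered 12 (20.3%, beside 10.6% of all genes), and 7 with eBayes without the trend (11.9%, beside 9.44%). Without the dimmest 0.25 of genes they numbered 12 again (21.1%, beside 14.9% of all genes left). Without Exercise arrays 306, 309 and 310 (chosen after seeing the data) they numbered 5 (8.47%, beside 8.06%). When single probe sets were fitted, 49 of 210 were lower (10.3% of all single-symbol probe sets were). Leaving out 1 array gave 5 to 12 genes, the fewest without non-Exercise 327 (8.47%, beside 7.44% of all genes). Those called higher numbered 1, and 0 in the table as deposited, with median centring and without the trend, 2 without the dimmest 0.25 of genes, 3 with array weights, and 0 to 3 leaving out 1 array. Median centring gave 18 lower members (30.5%, beside 15.4% of all genes) and a split over all genes of 938 higher and 3076 lower, a lower share of 76.6% against 62.6%. The member median was -0.096 with median centring (beside -0.051 over all genes) and -0.036 in the table as deposited (beside 0.0096). It was -0.04 to -0.024 leaving out 1 array. The large-subunit median was -0.089 with median centring, 0.0012 without the 3 arrays (opposite sign, beside 0.0065 over all genes) and -0.034 to -0.017 leaving out 1 array. The small-subunit median was -0.11 with median centring, -0.083 over single probe sets and -0.077 to -0.025 leaving out 1 array. Over all genes, 746 were higher without the 3 arrays, and leaving out 1 array gave 857 to 1528 higher and 1435 to 2333 lower. The causes were not tested, except that leaving out arrays means fewer samples and single probe sets count a gene more than once. Among members not called, Rpl6, Rps10, Rpl27 and Rps14 passed in 3, 5, 3 and 2 of 19 alternatives, the last pair as higher, and Rpl23a, Rpl34, Rpl4 and Rps3 were lower with median centring. Among genes not picked after their values were seen, no named gene changed sign past the threshold. No paired analysis was possible because the groups share no replicate numbers. With 5 arrays a group, a log2 table without detection calls limits what can be said of dim probe sets.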
